A study of Mus musculus with 2 samples.

Results

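The genes described here are the 92 mouse potassium channel genes whose symbol is Kcn followed by subfamily letters and a number. They were found by gene identifier among the 43346 gene rows of both expression tables, and all 92 are annotated as protein coding. By the channel nomenclature 77 encode subunits that line the pore and 15 encode auxiliary subunits. A further 7 genes with a Kcn symbol fall outside that form, among them the antisense RNA gene Kcnq1ot1 and the channel regulator gene Kcnrg.

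Polyadenylated RNA of more than 200 nt was taken from the cortex of adult C57BL/6J mice, an inbred laboratory strain, at 8 weeks of age, with no treatment or genetic change given. Each library came from tissue of several littermates, labelled as males and females together, and it was sequenced as stranded read pairs. There were 2 such libraries, called replicates 1 and 2, which form the only group, so the data hold no second condition. The labels name the tissue cortical plate as well as cortex. As bulk tissue from pooled animals, it gives neither levels per cell type nor the spread between single animals, and a gene at a low level may be in few cells or at little RNA per cell, which cannot be told apart.

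The libraries held 91875460 and 92939474 expected counts. They went against the labelled mixture of sexes: 3 genes of the Y chromosome (Uty, Ddx3y, Kdm5d) were at 0 counts throughout and Eif2s3y had 1 and 0, while Xist, the RNA that silences an X chromosome in female cells, stood at 99.7 and 79.5 TPM. Markers of the labelled tissue were abundant, with summed levels of 3027 and 2604 TPM for 6 genes of excitatory neurons, 1773 and 1634 TPM for 8 astrocyte genes and 3660 and 4452 TPM for 8 oligodendrocyte genes. Markers of neighbouring regions differed between the libraries. All 12 striatal genes were higher in replicate 2 in the adjusted binomial test between the libraries, with summed levels of 161 and 468 TPM, while of 8 hippocampal genes 6 were lower and 1 higher, with 96.3 and 68.1 TPM. Of 5 cerebellar genes 3 were lower and 0 higher (Pcp2 had 66 and 2 counts, Gabra6 26 and 1 and Cbln3 111 and 52). All 8 oligodendrocyte genes and 5 of 6 genes of choroid plexus and ependyma were also higher in replicate 2. Over all genes tested in this way 14.8% were higher there and 13.9% lower.

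Potassium channels are membrane pores that let potassium ions pass and hold or return the membrane to its resting voltage. Voltage-gated channels (Kv) open on depolarization and shape the length and rate of spikes, inward rectifiers and the leak channels with paired pore domains (K2P) set the resting potential, and calcium- or sodium-activated channels open after ion entry. Auxiliary subunits bind the pore subunits and change their gating or their transport to the membrane. In cortex these genes are known for setting the firing pattern of each neuron type and for the uptake of potassium by astrocytes.

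Most of the family was expressed in the adult cortex. At least 1 TPM, the unit of transcript abundance that accounts for transcript length and library depth, was reached by 69 members in replicate 1 and 68 in replicate 2, and by 68 (73.9%) in both, beside 12873 of 21474 protein-coding genes (59.9%). The median member stood at 7.64 TPM in replicate 1 and 7.43 in replicate 2, beside 4.03 and 3.65 for protein-coding genes. At least 10 TPM in both libraries was reached by 40 members and at least 50 TPM by 11, while Kcnab2 alone exceeded 100 TPM in both. Kcnmb3, an accessory gene of calcium-activated channels, and the leak channel genes Kcnk16 and Kcnk18 had 0 counts in both libraries, which allows up to 3 counts in each. Another 5 members had 1 to 9 counts over both libraries, and the other 84 had at least 10.

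RNA of the family was spread over many genes. The 10 most abundant members held 49.0% ± 0.372 of the summed TPM of the family (SD over both libraries, n = 2, as in each ± value here), and auxiliary subunits held 27.8% ± 0.164. In the order of all members 70 of 91 neighbouring pairs had ranges over the libraries that overlapped, and those neighbours were not called apart. The ranges do not use that both members were measured in the same libraries, so an overlapping pair can keep its order in each. Kcnc1 stood above Kcnc4 in both, at 50.1 and 42.3 TPM against 48.2 and 41.6. Summed TPM of the family was 1789 in replicate 1 and 1586 in replicate 2. TPM likewise ran lower in replicate 2 over the 19829 genes with at least 10 counts, with a median log2 ratio of −0.16 to replicate 1. Each TPM level set between the libraries below carries that shift.

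**Figure D1:**
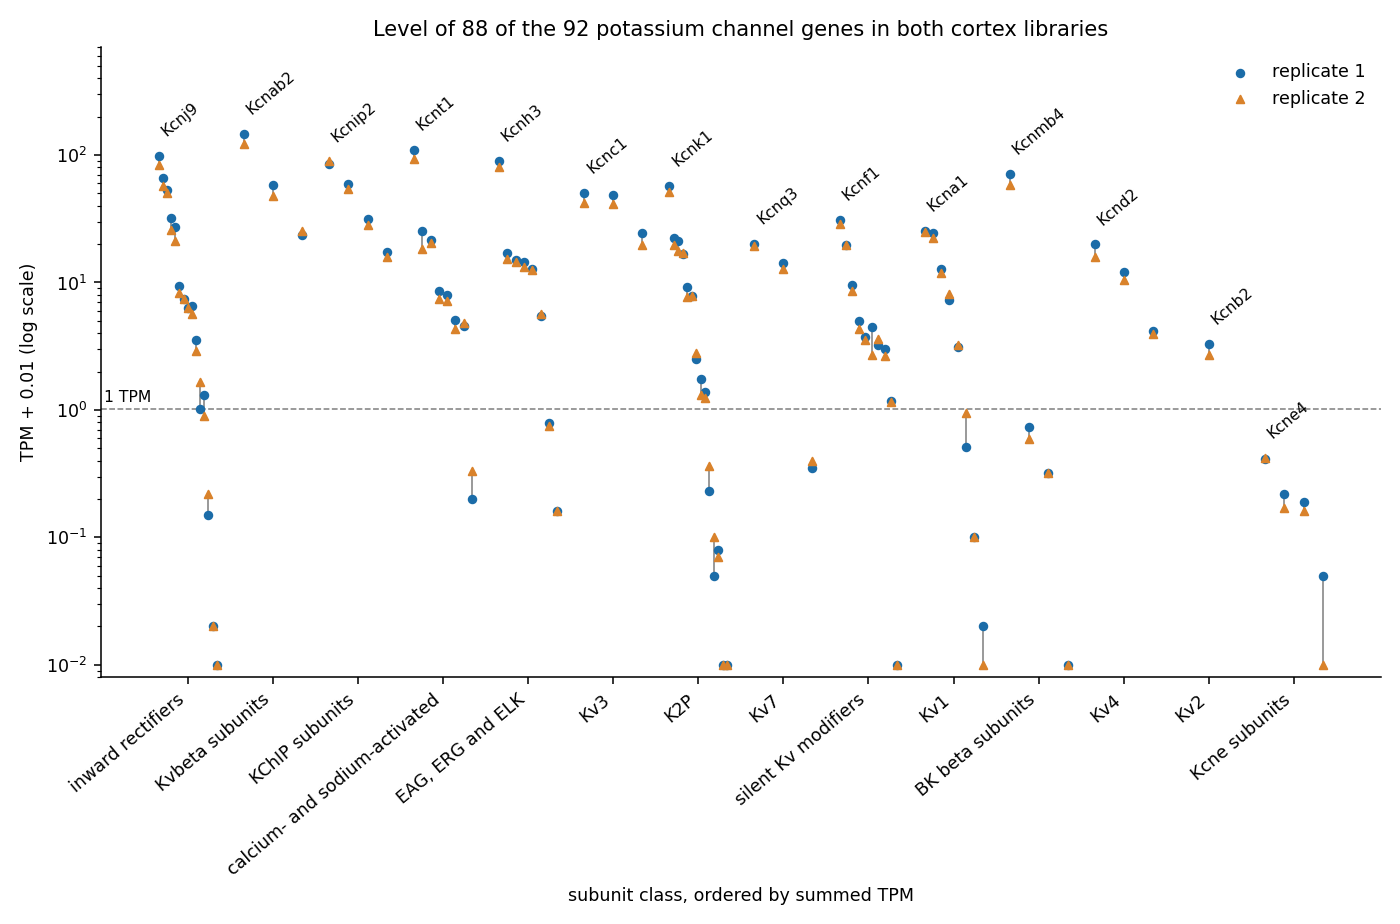
Level of each member in TPM + 0.01 (log scale) in replicate 1 (circles) and replicate 2 (triangles), joined by a line, for the 14 subunit classes ordered by summed TPM; the dashed line marks 1 TPM, 88 members are shown and the highest shown in each class is named. The named genes run from Kcnab2 at 146 and 121 TPM to Kcne4 at 0.40 and 0.41, and 64 of those shown lie at or above 1 TPM in both libraries.

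Among pore subunits the inward rectifiers formed the most abundant class, with 15 genes and summed levels of 312 TPM in replicate 1 and 271 in replicate 2. Their leader was Kcnj9, a subunit of channels opened by G proteins (ENSMUSG00000038026, chromosome 1, 172320501 to 172329318 on GRCm38), at 98.5 and 83.6 TPM. Its partners in such channels were lower: Kcnj3 stood at 31.9 and 25.7 TPM, Kcnj6 at 7.47 and 7.39 and Kcnj5, known from the heart, at 0.14 and 0.21. Kcnj9 thus exceeded Kcnj6 in both libraries, with a mean log2 ratio of Kcnj6 to Kcnj9 of −3.61.

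Kcnj4, a strong inward rectifier of neurons, followed at 65.7 and 56.7 TPM, while Kcnj2 of the same subfamily stood at 6.53 and 5.62, Kcnj12 at 6.34 and 6.32 and Kcnj14 at 1.30 and 0.89. Kcnj14 was the only member on different sides of 1 TPM in the libraries. Kcnj10, the main potassium uptake channel gene of astrocytes, had 52.9 and 50.5 TPM, and Kcnj16, whose product joins it, had 9.31 and 8.28. The log2 ratio of Kcnj10 to Kcnj16 was 2.56, and that of Kcnj4 to Kcnj2 3.33. Kcnj11, the pore of channels closed by ATP, stood at 27.1 and 21.3 TPM against 3.55 and 2.87 for Kcnj8, its relative in vessel walls. Their ranges did not overlap, and the log2 ratio was 2.91. At the low end were Kcnj13 of choroid plexus epithelium at 1.01 and 1.64 TPM, Kcnj15 with 4 counts in each library and Kcnj1, a kidney channel gene, with 0 and 1.

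Calcium- and sodium-activated pore subunits summed to 182 and 157 TPM, of which Kcnt1 and Kcnn2 together held 72.9%. Kcnt1 encodes a channel opened by internal sodium (ENSMUSG00000058740, chromosome 2, 25863734 to 25918273) and had 109 and 93.9 TPM, against 8.00 and 7.10 for its relative Kcnt2, a log2 ratio of 3.75. The small-conductance calcium-activated subunits were led by Kcnn2 at 25.4 and 18.3 TPM, followed by Kcnn1 at 8.50 and 7.47 and Kcnn3 at 4.56 and 4.80. Kcnn4, known from blood and epithelial cells, had 0.19 and 0.32. Kcnma1, the large-conductance (BK) pore, stood at 21.4 and 20.3 TPM, and its range overlapped that of Kcnn2.

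Kcnu1, a BK relative known from sperm, had 5.07 and 4.30 TPM, which rested on short transcripts. Its RNA was assigned to a transcript of 1446 nt (70.3% ± 8.23 of gene TPM) and one of 697 nt (29.3% ± 8.48), from 371 and 312 counts in the libraries. In the beta subunits of BK channels 98.5% of the summed TPM came from Kcnmb4, the form typical of brain, at 70.9 and 58.2 TPM. Kcnmb2 had 0.73 and 0.58 TPM and Kcnmb1, the form typical of smooth muscle, 0.31 in both. The log2 ratio of Kcnmb4 to Kcnmb2 was 6.62, the widest of the 27 pairs of related members that were compared.

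Among voltage-gated pores the EAG, ERG and ELK class (155 and 142 TPM) and the Kv3 class (155 and 130 TPM) had the highest summed TPM, and their ranges overlapped each other and, for Kv3, that of the Kv7 class. Not divided by length the order turned, with 14.3% of the family's summed CPM (counts scaled to depth alone) in the Kv7 class, 11.1% in EAG, ERG and ELK and 10.2% in Kv3. Kcnh3 of the ELK branch (ENSMUSG00000037579, chromosome 15, 99224861 to 99242817) held 56.9% of its class, at 89.2 and 79.9 TPM, ahead of Kcnh1 of the EAG branch at 17.1 and 15.3. Kcnh2 (14.9 and 14.5 TPM) and Kcnh7 (14.5 and 13.3), both of the ERG branch, overlapped. Kcnh4 had 12.8 and 12.6 TPM, Kcnh5 5.49 and 5.67, Kcnh6 0.78 and 0.74, and Kcnh8 0.15 in both.

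Of the Kv3 genes, whose channels repolarize fast-spiking neurons, Kcnc1 stood at 50.1 and 42.3 TPM, Kcnc4 at 48.2 and 41.6 and Kcnc2 at 24.5 and 19.7. Kcnc1 and Kcnc4 overlapped, and Kcnc2 lay below both. Of the Kv7 genes, whose channels carry the M-current that restrains repeated firing, Kcnq3 had 20.1 and 19.4 TPM and Kcnq5 14.1 and 12.9, without overlap. Kcnq1 of the heart had 0.34 and 0.39 TPM from 31 and 45 counts. These lie below the deposited credible bounds of 0.67 to 12.6 and 0.71 to 12.9 TPM, and the deposited posterior mean was 5.56 and 5.71, so its level is uncertain. On the other strand it overlaps Kcnq1ot1, which had 6364.5 counts on average.

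Kv1 genes, of channels found along axons, summed to 73.8 and 71.5 TPM. Kcna1 stood at 25.6 and 24.9 TPM, Kcna6 at 24.6 and 22.5, Kcna2 at 12.7 and 11.8, Kcna4, which gives inactivating channels, at 7.30 and 8.11 and Kcna3 at 3.09 and 3.20. Of the Kcna4 level, 2.48 and 3.24 TPM lay on a transcript of 370 nt not typed as protein coding, from 28.4 and 38.9 counts. The coding transcript of Kcna4 had 4.82 and 4.88 TPM. Kcna5, Kcna10 and Kcna7 were each below 1 TPM, down to 2 and 1 counts for Kcna7 of muscle. Kcna1 exceeded Kcna2, with a log2 ratio of Kcna2 to Kcna1 of −1.05. Of the Kv4 genes, which carry the transient current of dendrites, Kcnd2 had 19.9 and 15.8 TPM, Kcnd3 12.1 and 10.5 and Kcnd1 4.16 and 3.91, with no overlap.

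The Kv2 pore gene Kcnb2 stood at 3.28 and 2.68 TPM. The silent modifiers, which form no channel alone and join Kv2 pores, summed to 80.6 and 74.9 TPM over 10 genes. Kcnf1 led them at 30.9 and 28.8 TPM, followed by Kcnv1 at 19.5 and 19.7 and Kcns1 at 9.61 and 8.53. The other modifiers except Kcnv2, known from the retina and with 0 and 1 counts, lay between 1.14 and 4.98 TPM.

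Leak channels of the K2P class summed to 140 and 127 TPM over 14 genes. Kcnk1 was highest at 57.4 and 50.8 TPM (chromosome 8, 125995170 to 126030685). Of the channels that open on membrane stretch, Kcnk2 had 22.2 and 19.8 TPM and Kcnk4 16.6 and 16.9, and Kcnk10 of the same subfamily had 1.74 and 1.31. The acid-sensitive channel gene Kcnk9 stood at 21.1 and 17.6 TPM and its relative Kcnk3 at 9.27 and 7.71. Kcnk12 had 7.80 and 7.84 TPM, Kcnk13, known from microglia, 2.49 and 2.80 and Kcnk6 1.38 and 1.23, while Kcnk5, Kcnk7 and Kcnk15 were below 1 TPM.

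The Kvbeta genes, whose cytoplasmic products bind Kv1 channels, summed to 228 and 194 TPM, above the Kv1 pores in both libraries. Kcnab2 (ENSMUSG00000028931, chromosome 4, 152390742 to 152477871) was the highest member of the family. It had 146 and 121 TPM, Kcnab3 57.9 and 47.9 and Kcnab1, which speeds inactivation, 23.6 and 25.1. The KChIP genes, whose calcium-binding products join Kv4 channels, summed to 194 and 188 TPM against 36.1 and 30.2 for the Kv4 pores. Kcnip2 led at 85.2 and 89.6 TPM, then Kcnip3, also known as a transcriptional repressor, at 59.8 and 54.4, Kcnip4 at 31.7 and 28.0 and Kcnip1 at 17.3 and 15.9, without overlap. Of the 4 Kcne genes among the members, whose products join Kv7 and other channels, none reached 1 TPM in either library. Kcne4 had 0.40 and 0.41 TPM, Kcne2 0.21 and 0.16, Kcne3 0.18 and 0.15 and Kcne1 2 and 0 counts.

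**Figure D2:**
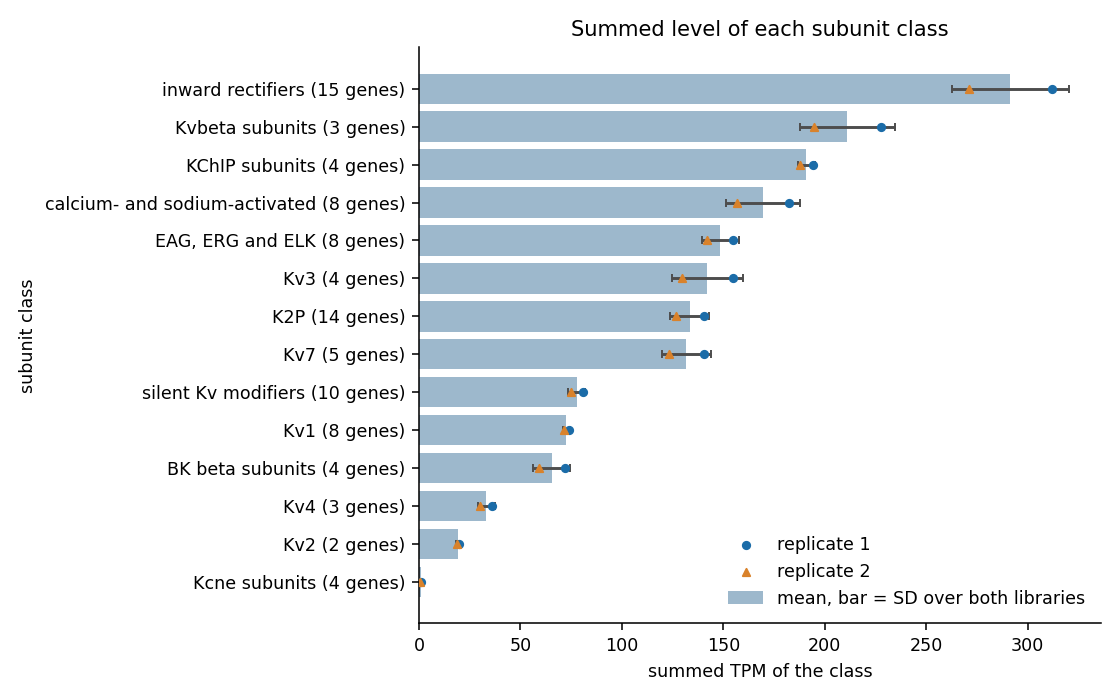
Summed TPM of each of the 14 subunit classes: bars are the mean of both libraries, error bars the SD (n = 2), and points the libraries. Inward rectifiers stand highest at 291 TPM and Kcne subunits lowest at 0.775; the EAG, ERG and ELK, Kv3, K2P and Kv7 classes lie between 132 and 149 TPM, each overlapping the next.

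The 27 fixed pairs compared subunits that assemble together or replace each other. The first gene exceeded the second in each library for 21 pairs and the second the first for 6, and all 27 log2 ratios exceeded the SD between the libraries. Among the 6 were Kcna2 to Kcna1 (−1.05), Kcna2 to Kcna6 (−0.94), Kcnj6 to Kcnj9 (−3.61), Kcnip3 to Kcnip2 (−0.62) and Kcnh7 to Kcnh2 (−0.084). The last of these does not keep its sign: it was 0.23 in the RPKM values on the older mm9 assembly and 1.87 in expected counts not divided by length. The log2 ratio of Kcnk9 to Kcnk3 was 1.19 and turned to −0.65 without division by length. The other pairs named here kept their sign under those settings, except that Kcnj11 has no value here on mm9 and its pair was not compared there.

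Proteins that bind these channels but have no Kcn symbol were also expressed. Of the Kv4 partners, Dpp6 stood at 53.4 and 46.5 TPM and Dpp10 at 36.6 and 35.1, above each of the 3 Kv4 pores. In the complex that anchors Kv1 channels on axons, Cntnap2 had 17.8 and 14.3 TPM, Cntn2 28.4 and 27.6, Adam22 46.5 and 39.6, Lgi1 47.8 and 37.9, Lgi3 59.4 and 58.1 and Epb41l3 36.5 and 33.4. Abcc8, the sulfonylurea receptor that joins Kcnj11, stood at 10.3 and 8.44 TPM, below the pore, and Abcc9, found with Kcnj8, at 1.61 ± 0.148. Not divided by length the order of Abcc8 and Kcnj11 turned, with 3296 and 2973 counts against 1782 and 1526. Among the gamma subunits of BK channels, Lrrc55 had 13.3 and 11.8 TPM and Lrrc38 1.27 and 1.46, while Lrrc26 had 2 and 0 counts and Lrrc52 0 in both. The Kv2 partners Amigo1 (27.1 and 21.6 TPM), Vapa (89.1 and 86.3) and Vapb (32.1 and 27.5) were each above 20 TPM in both libraries.

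The only contrast the design allows is replicate 2 against replicate 1, which asks how far the level of a channel gene depends on the library. Of the 84 members with at least 10 counts, 39 (46.4%) differed between the libraries in an exact two-sided binomial test with Benjamini-Hochberg adjustment over 19829 genes, where 28.7% of all genes did. Of these 22 were higher in replicate 2 (14.8% of all genes were) and 17 lower (13.9%). The test covers counting error of these libraries only and gives no spread between animals. With scaling by plain totals 16 were higher and 21 lower: 33 of the 39 calls were kept, 6 were lost, among them Kcnf1, Kcnj5, Kcnj6, Kcnk12 and Kcnma1, and 4 members were called only there. How small a difference can pass depends on the count. Among members with a mean of at least 1000 counts 30 of 54 (55.6%) passed, beside 41.1% of 9768 genes, a comparison added after the data were seen. Depth above that minimum was not matched, and its part in the share of members called was not tested.

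Most of these differences were small. The log2 ratio of replicate 2 to replicate 1 had a median of 0.014 over the members tested, beside 0.0029 over all genes, and 98.1% of members with at least 1000 counts on average lay within 1.2-fold, beside 96.0% of such genes. At 1.5-fold or more 4 members passed (4.37% of all genes), all higher in replicate 2 (2.8%), and 0 were lower (1.57%). With an edgeR exact test that adds the common biological coefficient of variation of 0.0905, Kcna5 alone passed (0.908% of all genes higher), 0 members were lower, and 6 of 84 members (7.14%) had an unadjusted p under 0.05, of which 5 were higher and 1 was lower, beside 6.31% of all genes (3.83% higher and 2.48% lower).

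The members past 1.5-fold were all of low level. Kcna5, a Kv1 gene known from heart and vessel muscle (chromosome 6, 126532551 to 126535412), had 89 counts in replicate 1 and 181 in replicate 2, which is 2.07-fold (95% interval 1.60 to 2.70, adjusted p = 1.1e-07 in the binomial test). Kcnj13, the inward rectifier of choroid plexus (chromosome 1, 87386363 to 87394729), had 73 and 129 counts, 1.80-fold (1.34 to 2.44). Genes of choroid plexus and ependyma moved with it: 5 of 6 were higher and 1, Kl, lower, with a summed level of 19.0 and 26.2 TPM and Ttr at 14.8 and 19.4; their part in the result was not tested. Kcnj13 lies opposite Gigyf2, which had 6103.5 counts on average, and whether counting used strand is not given in the sources used here. Chosen after their values were seen, Kcnk5 (47 and 81 counts) was 1.76-fold (1.21 to 2.57) and Kcnj5 (42 and 67 counts) 1.63-fold (1.09 to 2.45) higher.

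Larger counts gave narrower differences. Kcnip2 had 13292 and 15332 counts, 1.18-fold (1.15 to 1.2) higher in replicate 2 with an adjusted p of 6.5e-41 in the binomial test, and Kcnab1 had 4702 and 5566, 1.21-fold (1.16 to 1.26). Neither passed the edgeR exact test, with an adjusted p of 1 for both. Striatal markers, at 161 and 468 TPM summed and 12 of 12 higher, moved with these genes; their part was not tested. Of the Kv1 genes tested 3 of 7 were higher (Kcna1, Kcna4 and Kcna5) and 0 lower, although Kcna1 had a log2 ratio of −0.038 in plain TPM. Of the K2P genes tested 4 of 12 were higher (Kcnk4, Kcnk5, Kcnk12 and Kcnk13) and 0 lower. Beside either class, 14.8% of all genes were higher and 13.9% lower. Kcnk13 was 1.25-fold (1.11 to 1.42) higher. Of 6 microglial markers 3 were lower and 0 higher, and their part was not tested. Among modifiers Kcng1, Kcnv1 and Kcnf1 were higher (Kcnf1 with −0.099 in plain TPM).

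Of the Kv3 genes, Kcnc1, Kcnc2 and Kcnc4 were lower in replicate 2, from Kcnc2 with 9945 and 8781 counts, 1.11-fold (1.08 to 1.14) higher in replicate 1, to Kcnc4 with 9178 and 8655, 1.04-fold (1.01 to 1.07). Of 6 parvalbumin interneuron markers 5 were higher and 0 lower, at 286 and 297 TPM summed, or 276 and 272 TPM without Tac1, which is also on the striatal list. Pvalb itself was not called (66.3 and 60.4 TPM). Cerebellar markers moved the same way as these Kv3 genes, with 3 of 5 lower and a summed level of 78.5 and 67.8 TPM (12.1 and 7.41 without Pvalb, which is on both lists), sums added after the data were seen; the part of either list was not tested. Among the other genes lower in replicate 2 were Kcnab2, Kcnab3, Kcnb2, Kcnd2, Kcng2, Kcnj3, Kcnj4, Kcnj9, Kcnj11, Kcnj14, Kcnmb4 and Kcnn2. The widest of these was Kcng2, with 635 and 419 counts, 1.49-fold (1.31 to 1.68) higher in replicate 1. Kcnn2 was 1.18-fold (1.13 to 1.24) and Kcnd2 1.12-fold (1.08 to 1.16) higher there. Hippocampal markers (96.3 and 68.1 TPM summed, 6 of 8 lower and 1 higher) and excitatory neuron markers (4 of 6 lower, 0 higher) moved the same way. Their part was not tested. In RPKM on the mm9 assembly, whose columns are not tied to replicates, Kcnn2 stood at 4.93 and 1.70, a wider gap than in counts. Kcnab3 stood there at 13.2 and 5.99, also wider apart, and Kcnd2 at 2.93 and 2.42.

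Within a class, members could move in opposite directions. Of the inward rectifiers 4 were higher (Kcnj5, Kcnj6, Kcnj10 and Kcnj13) and 5 lower; Kcnj10 was 1.07-fold (1.05 to 1.09) higher but had −0.067 in plain TPM, where Kcnj6 had −0.016. Astrocyte markers had 5 of 8 higher and 1 lower, and their part was not tested. Kcnh4 and Kcnh5 were the called genes of their class, both higher, Kcnh4 with −0.031 in plain TPM. Kcnma1, Kcnn3 and Kcnq3 were higher as well, Kcnq3 by 1.08-fold (1.06 to 1.11), though Kcnma1 had −0.073 and Kcnq3 −0.053 in plain TPM. Relative to the shift of all genes in TPM, 0 of the 39 changed direction. Of the 15 partner genes tested, 5 were higher (14.8% of all genes were) and 5 lower (13.9%). Their log2 ratios ran from −0.17 for Lgi1 to 0.36 for Lrrc38.

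**Figure D3:**
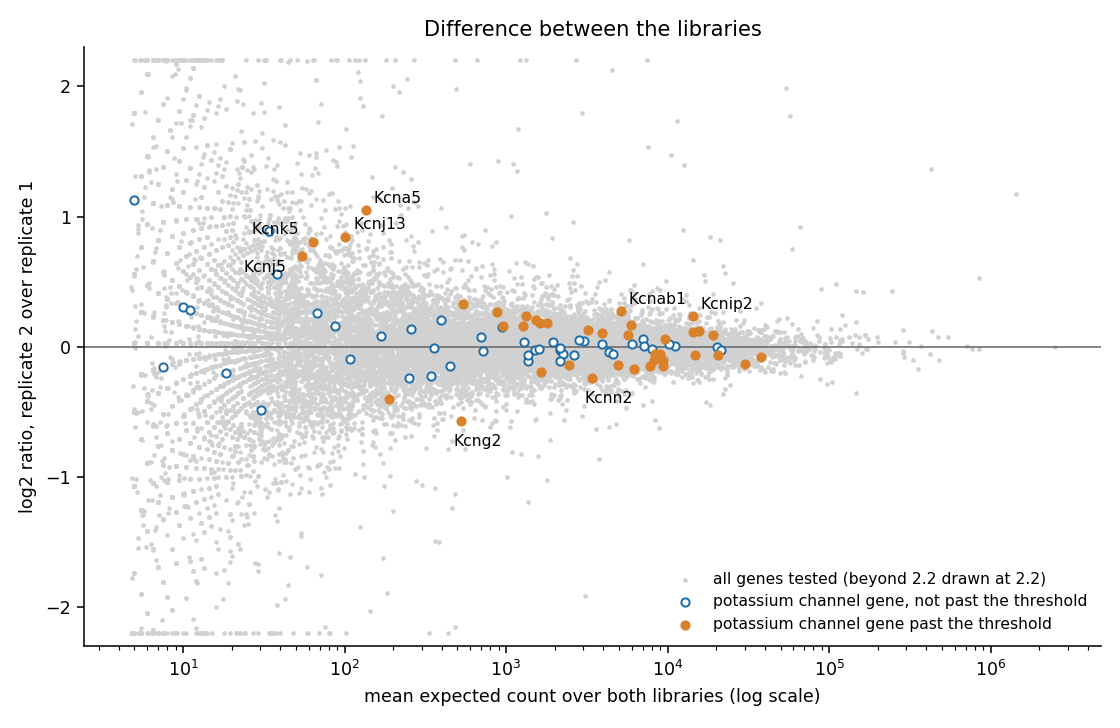
Log2 ratio of replicate 2 to replicate 1 against the mean expected count (log scale) for all genes tested (grey), members not past the threshold (open) and members past it (filled), with TMM scaling. Members spread from −0.57 for Kcng2 to 1.05 for Kcna5 among those past the threshold, and those with over 1000 counts lie close to 0.

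Shares of transcripts were taken for the 40 members with a mean of at least 10 TPM. Of these 14 had 1 annotated transcript, and the leading transcript was the same in both libraries for all 40. In 9 members the leader held under 60% of gene TPM. Kcnh1 was led by a transcript of 5165 nt at 36.5% ± 1.63, typed as coding but with only 294 nt of annotated coding sequence in 3 exons. Transcripts with 2967 and 2886 nt of coding sequence, each in 11 exons, followed at 31.8% ± 2.59 and 31.7% ± 0.960. Kcnj3 had 44.1% ± 2.73 and 33.6% ± 4.16 for its first and second, Kcnma1 39.6% ± 1.27 and 29.3% ± 1.59 among 15 transcripts, Kcnn2 48.5% ± 3.93 and 31.4% ± 0.586, Kcnip1 57.9% ± 1.03 and 30.4% ± 1.58, and Kcnab2 57.7% ± 2.47 and 21.8% ± 1.68. In these 6 genes the first and second transcripts are annotated as protein coding. Their coding lengths can differ, as with 1503 and 705 nt in Kcnj3.

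In other members much of the TPM was assigned to transcripts of an annotated type other than protein coding. Kcna6 had 57.2% ± 1.91 on a transcript marked for nonsense-mediated decay and 36.8% ± 1.63 on a processed transcript, 94.0% outside transcripts typed as protein coding in all. The transcript marked for decay still has an annotated coding sequence of 1587 nt, as long as that of the transcript typed as protein coding. Kcnt1 was led by a retained-intron transcript of 2120 nt at 21.1% ± 0.512, ahead of a coding one at 17.2% ± 0.00691, and 52.6% of its TPM lay outside transcripts of that type. Kcnk2 had 39.3% ± 7.52 on its coding leader and 25.2% ± 5.58 on a transcript marked for decay. In all, 12 of the 40 members had over 10% of TPM outside transcripts typed as protein coding. Among them were Kcnh2 at 30.2%, Kcnab3 at 23.8% and Kcnip2 at 21.1%. In such shares of TPM a short transcript weighs more than in counts. A processed transcript of 710 nt held 13.4% of Kcnh2 TPM from 80.0 and 60.4 of 3010 and 3040 counts. The leader of Kcnt1 had 2950 and 2867 of 21814 and 21083 counts.

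**Figure D4:**
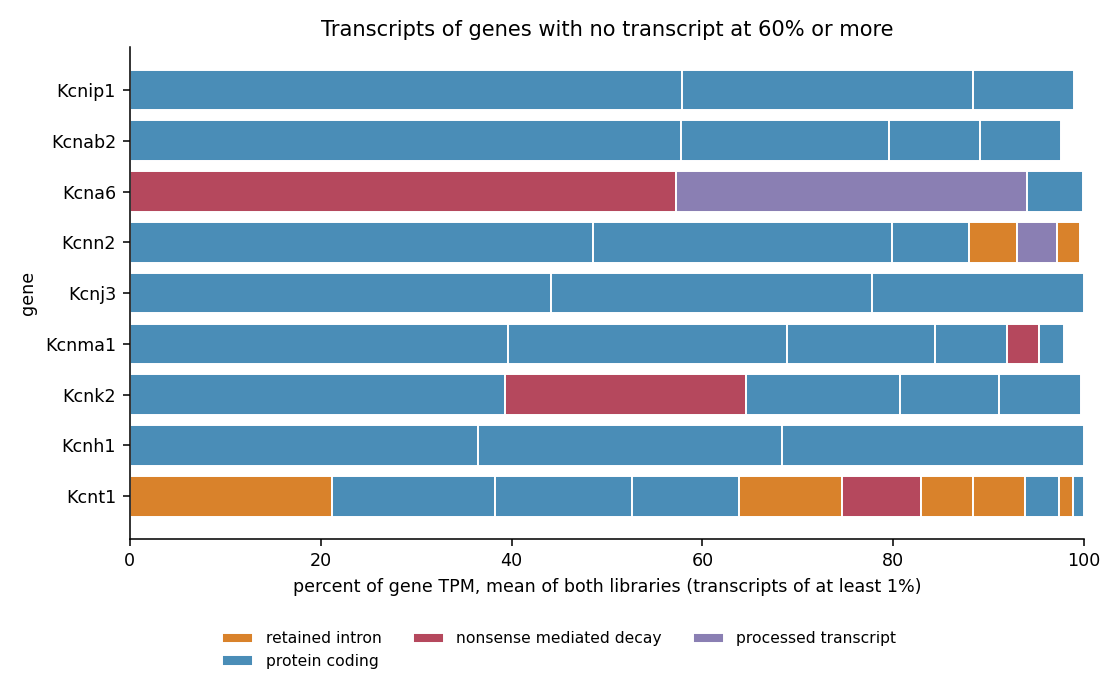
Share of gene TPM (percent, mean of both libraries) of each transcript with at least 1%, coloured by annotated type, for the 9 members whose leading transcript holds under 60%. Kcnip1 has the largest leader at 57.9% and Kcnt1 the smallest at 21.1%; Kcna6 has 94.0% outside transcripts typed as protein coding.

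Junction reads on the mm9 assembly showed which exons were skipped. They are given in a pair of columns that are not tied to replicates, and each exon needed at least 20 informative reads in both columns. Of 370 internal exons measured in 45 member genes, 348 were included in over 90% of reads in both columns, and 13 in 11 genes were included in 10% to 90%. Of these 13 exons 8 had a length that is a multiple of 3, beside 143 of all 370. Of the 10 with most reads, 7 follow, with 95% Wilson intervals over the summed reads, which cover counting error only.

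Inclusion was 75.1% (70.6 to 79.1) for an exon of 111 nt in Kcnn1. The exon of 29 nt in Kcnma1 was included in 32.8% and 45.2% in the columns, and in 39.1% (34.5 to 43.9) over both. Inclusion below 50% was also found for 33 nt in Kcnip1 (41.7%, 34.6 to 49.2), 57 nt in Kcnd3 (32.2%, 26.8 to 38.1) and 42 nt in Kcnt1 (25.9%, 20.3 to 32.3).

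**Figure D5:**
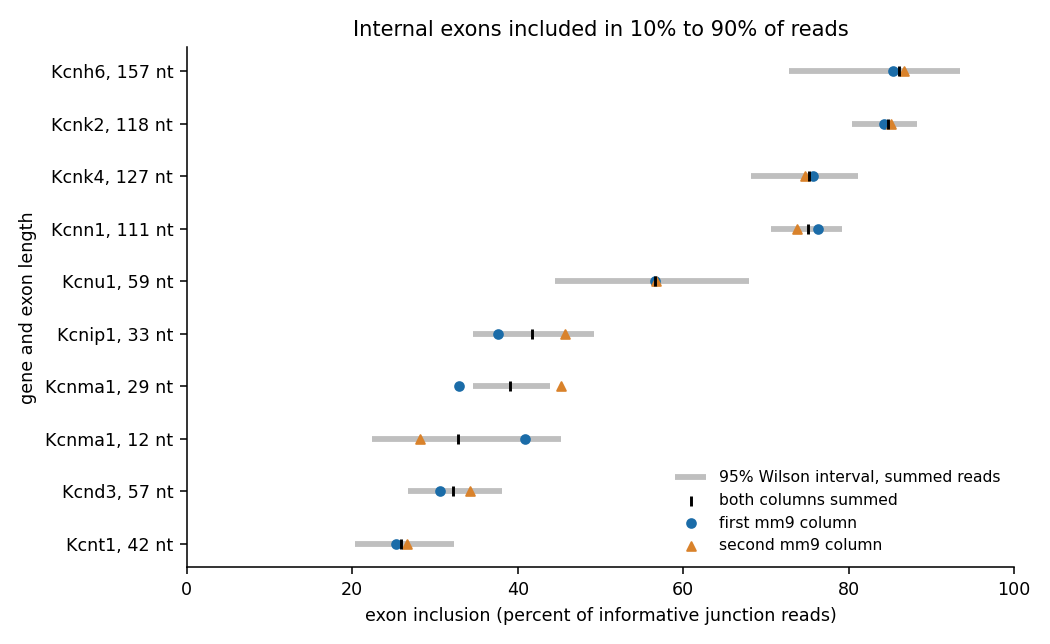
Inclusion (percent of informative junction reads) of 10 of the 13 internal exons between 10% and 90% in both mm9 columns: points are the columns, ticks the summed reads and grey bars the 95% Wilson interval. Inclusion runs from 25.9% for the exon of 42 nt in Kcnt1 to 86.0% for that of 157 nt in Kcnh6.

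The exons that carry this result, other than those of Kcnk2 and Kcnk4, are printed 5′ to 3′ in the sense of the gene, whole and in lower case throughout. Each was matched to GRCm38 by transcript, exon length and neighbouring introns, and each is wholly coding in the matched transcript.
Kcnma1, 29 nt, chr14:23306725-23306753, minus strand: tgcaacaaggatgactagaatgggccaag
Kcnn1, 111 nt, chr8:70848778-70848888, minus strand: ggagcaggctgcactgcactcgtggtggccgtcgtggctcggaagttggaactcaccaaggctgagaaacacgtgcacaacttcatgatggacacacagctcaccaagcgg
Kcnip1, 33 nt, chr11:33651540-33651572, minus strand: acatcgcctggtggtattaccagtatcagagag
Kcnd3, 57 nt, chr3:105666962-105667018, plus strand: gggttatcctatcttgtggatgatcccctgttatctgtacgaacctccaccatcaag
Kcnt1, 42 nt, chr2:25882196-25882237, plus strand: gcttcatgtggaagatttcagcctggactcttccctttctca

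The mechanically gated pair Kcnk2 and Kcnk4 each had an exon of intermediate inclusion. In Kcnk2 an exon of 118 nt was included in 84.7% of reads (80.4 to 88.2) and in Kcnk4 one of 127 nt in 75.2% (68.2 to 81.1), though Kcnk4 overlaps Catsperz on the same strand. Neither length is a multiple of 3. Set with their 3′ ends together, the last 48 nt were identical at 34 positions (70.8%), and the 70 nt before at 24 (34.3%). The 48 nt window followed no stated rule, so the contrast depends on where it starts. Capitals mark the identical bases in the last 48 nt.
Kcnk2, 118 nt, chr1:189295594-189295711, minus strand: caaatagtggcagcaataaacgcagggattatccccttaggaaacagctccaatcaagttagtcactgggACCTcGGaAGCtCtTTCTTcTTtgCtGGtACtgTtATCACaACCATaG
Kcnk4, 127 nt, chr19:6928282-6928408, minus strand: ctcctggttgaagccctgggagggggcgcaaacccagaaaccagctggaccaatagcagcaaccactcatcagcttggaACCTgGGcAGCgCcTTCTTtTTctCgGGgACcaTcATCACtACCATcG

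Several members lie side by side in the genome, at most 200 kb apart, some at like and some at unlike levels. On chromosome 6 Kcna5 (0.50 and 0.93 TPM), Kcna1 (25.6 and 24.9) and Kcna6 (24.6 and 22.5) follow each other on one strand, with gaps of 104984 and 61944 bp. On chromosome 3 Kcna3, Kcna2 and Kcna10 stood at 3.15, 12.2 and 0.0900 TPM on average. Kcnj9 and Kcnj10 on chromosome 1, which lie 11891 bp apart on opposite strands, were both abundant, and of these Kcnj9 was lower and Kcnj10 higher in replicate 2 (lower in plain TPM ratios). Kcnj16 and Kcnj2 on chromosome 11 were at 8.80 and 6.08 TPM on average, while Kcnj5 and Kcnj1, Kcne2 and Kcne1, and Kcnk5 and Kcnk16 were below 1 TPM in each pair. Kcnmb1 lies within Kcnip1 on the other strand, at 0.31 TPM against 16.6 on average.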

How the data were processed

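The authors deposited 1 gene and 1 transcript table per library on mm10 with GENCODE M4. Per the file headers these give expected counts, TPM, a posterior mean TPM and credible bounds of TPM; the length and bound columns are plain signal values as deposited, and the transcript tables hold the percent of gene TPM. The deposited mm9 tables (Ensembl 65) hold RPKM and whole-number counts of junction reads in 2 columns that name no replicate; these were used only as unassigned columns. The program and its settings are not given in the sources used here.

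Symbols, types and positions came from GENCODE M21 (GRCm38), which named 98.0% of gene rows. Libraries were scaled by TMM sizes (edgeR 4.0.16, R 4.3.3) and compared gene by gene. Expected counts were rounded, genes under 10 counts in sum were left out, and each gene was tested by an exact binomial test, two-sided, at a Benjamini-Hochberg adjusted p of 0.05. A pseudocount of 0.5 entered the log2 ratios. A quasi-likelihood fit has no residual degrees of freedom with 1 library on each side, so the edgeR exact test with a common coefficient of variation served as an alternative. The libraries differed beyond sampling noise and are not one library deposited in duplicate. The binomial test was tried on simulated counts that held set fold changes and sampling noise only. That run does not cover the larger spread between these libraries. Other steps used Python 3.11.15, pandas 2.3.3, numpy 2.4.6, scipy 1.17.1, statsmodels 0.14.6 and matplotlib 3.10.9.

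The members and lists were chosen with earlier results of these data known. Genes were named by rule: in each class the 3 highest members and the lowest, members past the test with at least 1.5-fold and 100 counts in the higher library, pair members, members with 0 counts in both libraries, members whose leading transcript holds under 60%, and the 10 exons of intermediate inclusion with most reads. Other members were named after their values were seen, to account for the family, as were genome neighbours and the aligned exons. Exon inclusion divides the average read number of the left and right exon junctions by its sum with skipping reads; end reads came from junctions with the A flag, whose meaning is not given in the sources used here. Exons were matched to GRCm38 by transcript, exon length and intron lengths, without conversion of coordinates. Some members that the rule takes, with their pairs and exons, are not reported here. Protein sequences were not used here.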

Additional observations from a re-analysis of the deposited data

How the results depend on the processing

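No paired analysis was possible because the 2 libraries form a single group. Leaving out either library gave 68 to 69 detected members, an auxiliary share of 27.6% to 27.9%, a share of the 10 highest members of 48.8% to 49.3%, and the same 21 pairs and 9 split members in number. Not divided by length, the auxiliary share was 19.0%, and on mm9 RPKM the share of the 10 highest members was 46.8%. By posterior mean TPM 69 members were detected, Kcnq1 being the addition. RPKM values run lower than TPM, and 46 members reached 1 on that scale, against 72 at 0.5 TPM and 52 at 5 TPM. Of the 39 members called between the libraries, the edgeR exact test called 1 (1 higher, 0 lower) and a limit of 1.5-fold left 4 (4 higher, 0 lower); of 10 partner genes called by the binomial test, edgeR called 0, and 0 had an unadjusted p under 0.05. Plain totals gave 37 calls (31.2% of all genes were called), of which 33 were among the 39 (43.2% higher, beside 56.4%; 33.2% beside 51.5% for all genes). Median-ratio factors gave 38 (28.7% of all genes), and minimum counts of 1 and 50 gave 36 (22.8%) and 41 (32.9%). Without adjustment for the shift of all genes, TPM ratios reversed 8 called members, among them Kcna1 (−0.038), Kcnf1 (−0.099), Kcnh4 (−0.031), Kcnj10 (−0.067), Kcnj6 (−0.016), Kcnma1 (−0.073) and Kcnq3 (−0.053). Without division by length Kcnk9 to Kcnk3 (−0.65) and Kcnh7 to Kcnh2 (1.87) changed sign, the last also on mm9 (0.23). A minimum of 5 TPM gave 10 split members and coding transcripts only 8; a minimum of 50 reads gave 10 exons, and all junctions 13. Depth limits the genes under 1 TPM, whose ratios rest on few counts.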
